A study of Mus musculus with 6 samples.

Results

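The genes described here encode the standard subunits of the proteasome, its activators and the factors that assemble it. They were taken as the protein-coding genes whose symbol begins with Psma to Psmg followed by a digit, without the immunoproteasome subunits Psmb8, Psmb9 and Psmb10, with an average of 1 CPM or more over the 6 libraries (CPM, a gene's reads scaled to the total of its library). By this rule 45 of the 25654 genes with values were members: 14 core subunits, 17 subunits of the regulatory cap (its subunits Adrm1 and Sem1 carry other names and are given further on), 6 activator or regulator genes, 7 assembly factors and Psmc3ip, which carries the name of a cap subunit but encodes a factor of meiotic recombination. Of the matching genes, 2 fell below the threshold: Psmb11, the thymus-specific catalytic subunit, at a mean of 0.256 CPM, and Psma8, the testis-specific alpha subunit, at 0.273 CPM. The lowest members above it were Psmc3ip at 14.6 CPM and Psmg1 at 24.6 CPM.

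The proteasome is the protease that degrades proteins marked with ubiquitin. Its barrel-shaped core is built of alpha rings, which gate the entrance, and beta rings, which hold the catalytic sites, while the cap docks on the alpha ring, binds ubiquitin chains, removes them and unfolds the substrate with a ring of ATPases. Activated T cells, which grow and divide quickly, use it both for protein turnover and to make peptides for antigen presentation, and interferon-induced subunits can replace the catalytic ones.

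Both groups were CD8+ T cells of wild-type female C57BL/6 mice, isolated with magnetic beads. Young donors were 6 weeks old and Aged donors about 65 weeks. The cells of both groups were activated for 2 days with plate-bound antibody to TCR-β (3 µg/ml) and antibody to CD28 (1 µg/ml) with IL-2 added at 10 ng/ml, and then kept in IL-2 for a further 5 days, so that they were read after 7 days in culture and not as resting cells. From each group, 3 libraries of 3' mRNA tags (QuantSeq) were sequenced. The titles call them biological replicates without saying whether each came from its own mouse, so p-values measure the spread between these libraries.

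The Young libraries held 2300219 to 2785915 reads assigned to genes and the Aged libraries 1952552 to 2608553, so that 1 read was worth 0.359 to 0.512 CPM. Calls on cell type markers are those of the limma test described below, in which 16.2% of all genes tested were higher and 12.5% lower. Of 7 CD8 T cell genes, 1 was called higher and 5 lower in Aged cells, with Cd8a (269.9 ± 5.69 against 303.1 ± 52.2 CPM, SD, n = 3 each) not called. The sum of these 7 genes, 5889 to 6023 CPM in Young and 6326 to 7894 CPM in Aged libraries, followed Gzmb, the higher one (3865 against 5500 CPM in mean). The B cell markers Ms4a1, Cd79a and Pax5 were listed at 0 in every library, and the B cell list, all of it Cd79b, summed to 2.51 to 9.99 CPM in Young and 0 to 1.53 CPM in Aged libraries. Cd79b was called lower (6.34 against 0.982 CPM in mean, limma adjusted p = 0.00515). Dendritic cell markers, with Flt3 and Siglech at 0, summed to 24.6 to 36.5 CPM in Young and 8.47 to 15.4 CPM in Aged libraries, where Xcr1 was lower (28.8 against 9.33 CPM in mean) and Itgax was at 0.871 and 2.32 CPM without a call. Macrophage and monocyte markers, with Lyz2 and Adgre1 at 0, summed to 14.6 to 21.3 CPM in Young and 6.66 to 19.3 CPM in Aged libraries, and 2 of 3 tested were lower (Cd68, 14.3 against 8.28 CPM, and Itgam, 3.08 against 0.442 CPM). NK cell genes summed to 162 to 188 CPM in Young and 194 to 250 CPM in Aged libraries. Most of that sum was Eomes, which was higher (152 against 196 CPM). Klrb1c (22.8 and 15.7 CPM) and Tyrobp (3.99 and 2.70 CPM) had lower means in Aged cells and were not called. Ncr1 averaged 0.128 CPM in Young cells and was at 0 in every Aged library. The neutrophil list, nearly all of it Ly6g (94.6 and 89.7 CPM in mean, not called), summed to 82.6 to 102 CPM in Young and 55.1 to 129 CPM in Aged libraries. Of its other markers, S100a8 was at 0 in every library and S100a9 averaged 0.0639 CPM over all libraries. CD4 T cell markers summed to 0.718 to 2.69 CPM in Young and 1.92 to 4.10 CPM in Aged libraries. Erythroid markers summed to 2.17 to 4.61 CPM in Young and 0.471 to 2.56 CPM in Aged libraries, and neither list held a call. The part of these lists in the results was not tested. In bulk RNA, a larger number of cells of one type or state and more RNA per cell cannot be told apart. Levels of these 3' tags depend little on transcript length, since each transcript gives its tags at its end.

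Proteasome genes took 0.70% of the reads in Young and 0.86% in Aged cells, or 6987 ± 250 CPM (SD, n = 3) against 8602 ± 186 CPM (SD, n = 3), a 1.23-fold difference between means. Differences were tested with limma on log2(CPM + 1) over all 10511 genes that averaged 1 CPM or more, with Benjamini-Hochberg adjustment over all of them, and a gene was called higher or lower in Aged cells at an adjusted p below 0.05. Of the 45 members, 29 were higher, 2 were lower and 14 passed in neither direction. Over all genes tested, 16.2% were higher and 12.5% were lower, 1701 against 1313 genes, a split that became 1306 against 1689 with upper-quartile scaling. With edgeR 26 members were higher, against 13.7% of all genes tested, and with DESeq2 26, against 9.06%. The 3 Aged libraries all lay above the 3 Young libraries for 35 members, against 22.5% of all genes tested, and all below for 4 members, against 18.3%. The median log2 difference (Aged minus Young, on the log2(CPM + 1) scale here and below) was 0.36 over the members and 0.03 over all genes tested.

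**Figure D1:**
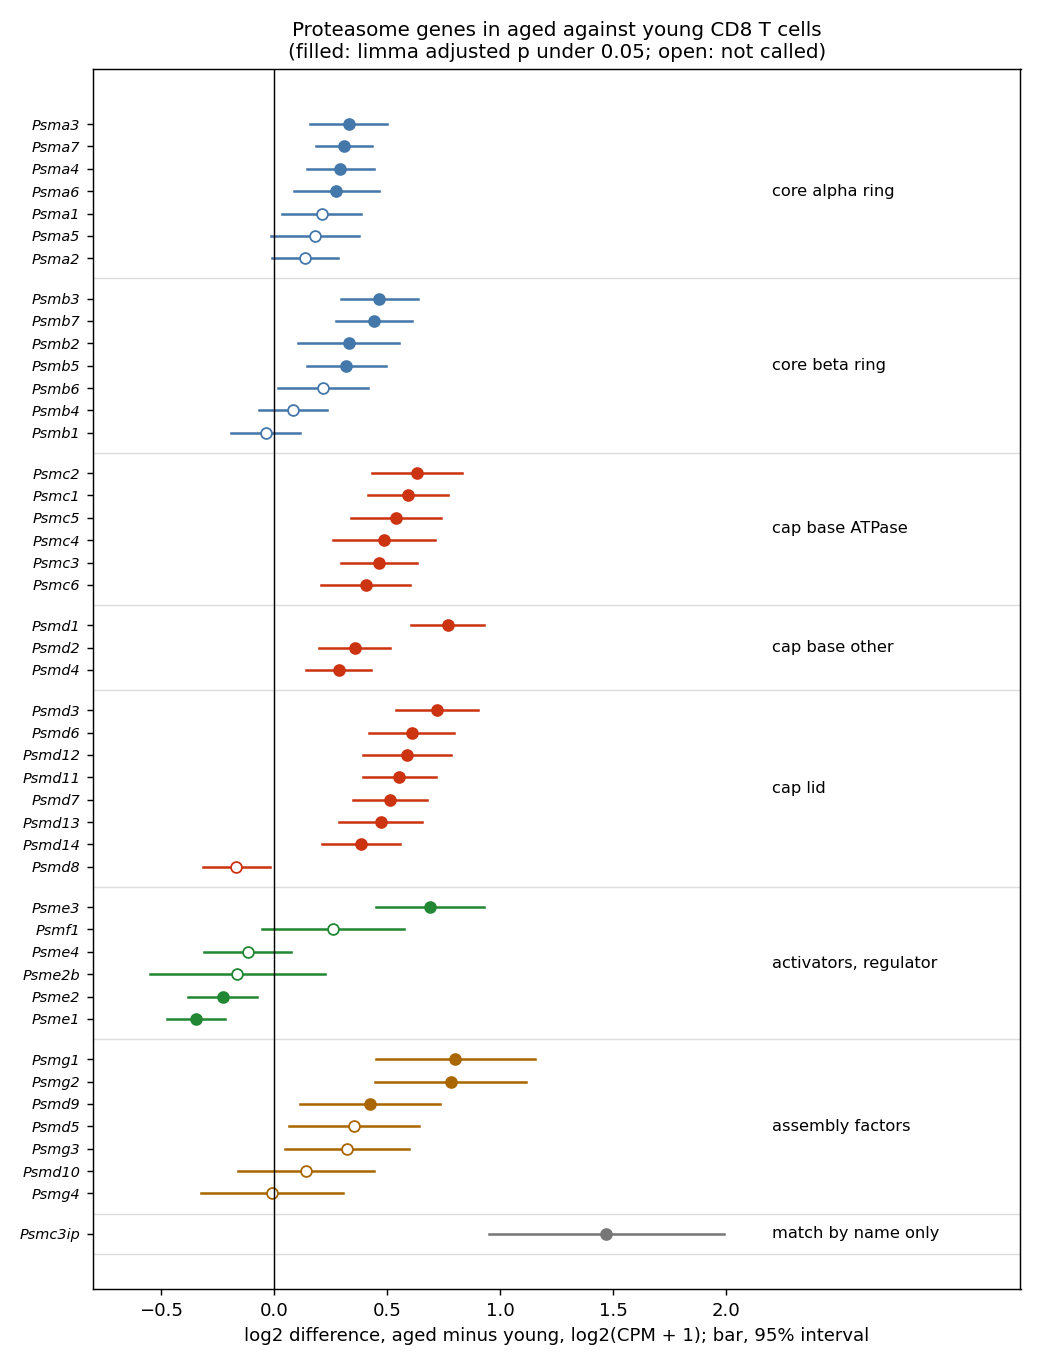
Log2 difference between Aged and Young cells for each member, grouped by role, with 95% confidence intervals from limma; each point is 1 gene. Cap subunits have a median of 0.51 against 0.28 for core subunits, Psmd8 is the cap subunit to the left of 0, and Psmc3ip lies farthest to the right.

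Most genes of the cap were higher in Aged cells. Of the 17 subunits taken by the rule, 16 were called higher, against 16.2% of all genes tested. None was called lower, against 12.5%, and 1, Psmd8, did not pass the test. The 16 calls held under all 17 alternative settings. The median log2 difference was 0.51, with a range from -0.17 to 0.77. Summed over the cap, levels were 2968, 2701 and 3049 CPM in Young replicates 1 to 3 and 3993, 3898 and 4078 CPM in Aged replicates 1 to 3. The groups did not overlap, and their means of 2906 ± 182 and 3990 ± 90.5 CPM (SD, n = 3 each) differed 1.37-fold.

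All 6 ATPases of the base, the motor ring that unfolds substrates, were higher in Aged cells, with a median log2 difference of 0.51. Psmc2 read 88.7, 82.6 and 92.2 CPM in the Young libraries and 140, 123 and 148 CPM in the Aged libraries. Every Aged library lay above every Young one, a 1.56-fold difference (log2 difference 0.63 ± 0.10, SE; limma adjusted p = 5.21e-05). Psmc1, the most abundant cap transcript, stood at 390, 306 and 404 CPM in Young libraries and 558, 523 and 567 CPM in Aged libraries. Young replicate 2 was the low library for this gene, and the 1.5-fold difference (0.59 ± 0.08; limma adjusted p = 2.59e-05) was larger than the spread in either group. Psmc6 changed least in the ring, from 110, 116 and 96.4 CPM to 144, 131 and 152 CPM, 1.33-fold with no overlap (limma adjusted p = 0.00274).

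The rule also took 3 non-ATPase subunits of the base, and all were higher. Psmd1, the large scaffold on which the ubiquitin receptor Adrm1 docks, showed the largest difference of the cap. It was at 159, 155 and 178 CPM in the Young libraries and at 289, 265 and 284 CPM in the Aged libraries, 1.70-fold higher (0.77 ± 0.08; limma adjusted p = 5.39e-07). Psmd2, the other scaffold, went from 228, 197 and 230 CPM to 279, 278 and 281 CPM, 1.28-fold (limma adjusted p = 0.00121). The ubiquitin receptor Psmd4 differed 1.22-fold, from 297, 272 and 315 CPM in Young to 354, 367 and 355 CPM in Aged libraries (limma adjusted p = 0.00393). The Aged libraries thus lay above the Young libraries for both scaffolds and the receptor, with a smaller gap for Psmd2 and Psmd4.

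In the lid, which carries the deubiquitinating enzyme Psmd14 and its partner Psmd7, 7 of the 8 subunits taken by the rule were higher and the median log2 difference was 0.53. The structural subunit Psmd3 had 192, 159 and 207 CPM in Young libraries and 292, 309 and 316 CPM in Aged libraries, 1.64-fold higher (0.72 ± 0.09; limma adjusted p = 4.12e-06). Psmd6 had 88.3, 87.2 and 96.4 CPM against 146, 129 and 141 CPM, 1.53-fold higher (0.61 ± 0.09; limma adjusted p = 4.46e-05). Psmd14 itself differed 1.31-fold (140, 144 and 138 CPM against 168, 194 and 192 CPM; limma adjusted p = 0.00134). For all of these genes the lowest Aged library was above the highest Young library. Psmd12, Psmd11, Psmd7 and Psmd13 were higher by 1.51-, 1.47-, 1.43- and 1.38-fold.

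Psmd8, the lid subunit that is added last and links the lid to the base, was the only one of the 17 with a lower mean in Aged cells. It read 314, 297 and 309 CPM in the Young libraries and 286, 252 and 282 CPM in the Aged libraries, so every Aged library lay below every Young one. The 1.12-fold lower mean (log2 difference -0.17 ± 0.07, 95% interval -0.31 to -0.02) did not pass the test (limma adjusted p = 0.0854). It passed, in the same direction, with edgeR (adjusted p = 0.0225), limma-voom (0.0186) and TMM (0.0225), RLE (0.0246) or upper-quartile scaling (0.0108), and not with DESeq2 (0.0605). Its level was among the highest of the cap in Young cells.

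Promoter sequence was read for the members with a RefSeq window on GRCm38.p6, from 250 bases before to 50 after the annotated start, which 38 of the 45 had. The letters CCGGAAG, a binding motif of ETS transcription factors, were found on either strand in 9 of 14 cap promoters (64.3%) and in 1 of 11 core promoters (9.09%), a gene with several annotated starts being counted where any of its windows held them. They were in 39.5% of all members' windows, in 33.3% of activator and 33.3% of assembly factor windows. The share was 22.6% for the windows of all tested genes with one and 9.93% for all windows. Psmd1, with the largest difference of the cap, had no match, and Psme4 and Psmg3, which were not called, had one. Of 21 matches in members 1 overlapped another of the 6 motifs searched. The stretches below show the match in capitals, as these letters or their reverse complement, 5′ to 3′ along the gene's strand, in bases that lie outside annotated exons. The first 4 are from the cap, and the others are from an activator and an assembly factor.
Psmd11 (cap, lid), chr11:80428564-80428614, plus strand: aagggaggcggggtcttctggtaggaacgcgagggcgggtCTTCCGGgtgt
Psmd2 (cap, base), chr16:20651586-20651651, plus strand: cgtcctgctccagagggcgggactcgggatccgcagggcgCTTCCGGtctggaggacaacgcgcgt
Psmc6 (cap, ATPase), chr14:45329684-45329770, plus strand: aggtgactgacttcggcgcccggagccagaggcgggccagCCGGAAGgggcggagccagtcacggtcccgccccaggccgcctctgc
Psmd4 (cap, ubiquitin receptor), chr3:95042693-95042779, minus strand: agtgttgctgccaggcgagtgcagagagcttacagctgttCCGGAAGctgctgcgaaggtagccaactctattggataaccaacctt
Psme3 (activator), chr11:101316066-101316152, plus strand: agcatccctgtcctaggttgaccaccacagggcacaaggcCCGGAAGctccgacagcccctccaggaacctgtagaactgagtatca
Psmg1 (assembly factor), chr16:95990983-95991069, minus strand: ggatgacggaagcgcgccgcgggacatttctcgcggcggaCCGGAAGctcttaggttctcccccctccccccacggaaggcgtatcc
In Psmd11 the match ended 4 bases before the start, and in Psmd2 19 bases before. The core gene with a match was Psma6, which has a pair of RefSeq starts: its matches lay in the window of the start inside the gene, and the window at the gene's first base held none. The antioxidant response core TGACNNNGC, the kind of element bound by NFE2L1, was found in 2 of 14 cap and 2 of 11 core promoters, and in 15.8% of all members' windows against 17.1% of tested genes. CCAAT was in 6 of 11 core and 4 of 14 cap promoters, and in 34.2% of members' windows against 43.6% of tested genes. GGGCGG, the GC box, was in 57.9% of members' windows against 70.0% of tested genes, and CACGTG, the E-box, in 7.89% against 12.1%. An interferon-response-like element (GAAA, any pair of bases, then GAAA) was in 13.2% of members' windows (Psmb3, Psmd4, Psmd9, Psme1 and Psmg4) against 3.84%. The motifs were chosen with results of these data known, so these shares describe the windows, and a match is not a measured binding site.

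In the core, fewer subunits passed the test. Of 14, 8 were higher in Aged cells, against 16.2% of all genes tested, and none was lower, against 12.5%. The other 6 did not pass the test. Over the 14 the median log2 difference was 0.28, with a range from -0.04 to 0.47. With edgeR 6 were higher, against 13.7% of all genes tested, since Psma6 (adjusted p = 0.0717) and Psmb2 (0.0662) lost their calls. Summed core levels were 2988, 2892 and 3011 CPM in Young libraries and 3546, 3394 and 3570 CPM in Aged replicates 1 to 3, or 2964 ± 62.9 and 3503 ± 95.3 CPM (SD, n = 3 each), a 1.18-fold difference without overlap.

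Among the alpha subunits 4 of 7 were higher, and for all 7 the Aged libraries lay above the Young libraries, against 22.5% of all genes tested. Psma3 read 220, 205 and 256 CPM in Young libraries and 273, 297 and 284 CPM in Aged libraries, 1.25-fold higher (0.33 ± 0.08; limma adjusted p = 0.00418). Psma7, the most abundant core transcript, read 493, 464 and 472 CPM against 610, 572 and 588 CPM, 1.24-fold higher (0.31 ± 0.06; limma adjusted p = 0.000514). Both were separated between the groups, although Young replicate 3 of Psma3 lay close to the lowest Aged library. Psma4 was also higher, 1.23-fold (limma adjusted p = 0.00366). Psma6 was higher 1.21-fold (limma adjusted p = 0.0251) but kept that call in only 7 of the 17 alternative settings, and not without Young replicate 1 (0.114), Young replicate 2 (0.0556), Aged replicate 1 (0.12) or Aged replicate 3 (0.0569). Psma2 changed least, with 357, 382 and 320 CPM against 383, 394 and 385 CPM (log2 difference 0.14, 95% interval -0.01 to 0.28; limma adjusted p = 0.152).

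Of the 7 beta subunits 4 were higher. Psmb3, a structural subunit of the ring, showed the largest core difference: 194, 167 and 207 CPM in Young libraries and 268, 257 and 256 CPM in Aged libraries, 1.38-fold (0.47 ± 0.08; limma adjusted p = 0.000231). Psmb7, which carries the trypsin-like site, read 156, 158 and 140 CPM against 217, 194 and 207 CPM, 1.36-fold higher (limma adjusted p = 0.000335). Psmb5, which carries the chymotrypsin-like site, read 183, 173 and 218 CPM against 238, 235 and 243 CPM, 1.24-fold higher (limma adjusted p = 0.00673). Psmb3, Psmb7 and Psmb5 were separated between the groups, and the Aged libraries of Psmb5 lay closer together than the Young ones. Exons of Psmb7 overlap those of Nek6 on the other strand (mean 25.97 CPM), and the use of strand in counting is not given. Psmb2 was higher 1.26-fold (limma adjusted p = 0.025) and kept the call in 7 of 17 settings, but not without Young replicate 1 (0.108), Young replicate 3 (0.0653), Aged replicate 2 (0.0518) or Aged replicate 3 (0.0843). Psmb6, which carries the caspase-like site, read 92.6, 89.7 and 97.2 CPM against 117, 98.1 and 111 CPM, separated but not called (limma adjusted p = 0.0989), except without Aged replicate 2 (0.0488). Psmb1, one of the most abundant core transcripts, had overlapping groups of 355, 324 and 368 CPM and 352, 313 and 355 CPM (log2 difference -0.04, 95% interval -0.19 to 0.11; limma adjusted p = 0.755).

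**Figure D2:**
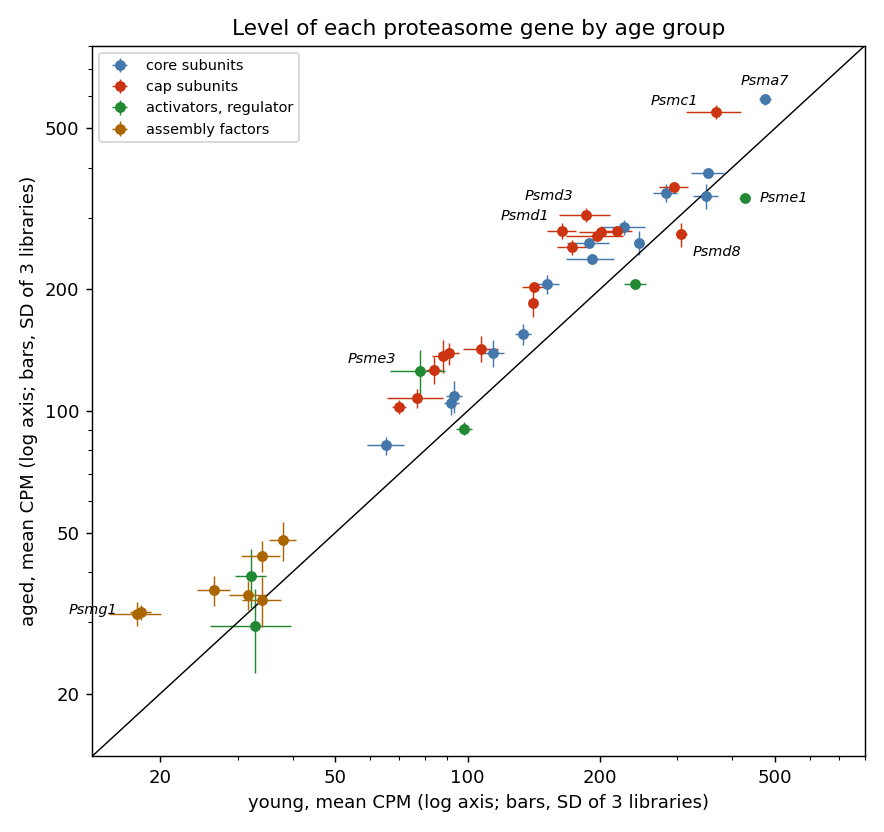
Mean level in Aged against Young cells for the core, cap, activator and assembly genes, in CPM on log axes, with the SD of 3 libraries as bars and a diagonal where both groups are equal. Every cap subunit except Psmd8 lies above the diagonal, and Psme1 lies below it.

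Levels within a complex were unequal although its subunits are built in at equal number. The highest core subunit exceeded the lowest 7.29-fold in Young and 7.18-fold in Aged cells, and in the cap the ratio was 5.24 and 5.38. Summed cap levels divided by summed core levels gave 0.993, 0.934 and 1.01 in Young and 1.13, 1.15 and 1.14 in Aged replicates 1 to 3. The ratio was therefore higher in every Aged library, at 1.14 ± 0.0114 against 0.980 ± 0.0409 (SD, n = 3 each). It is given as values and was not tested. The ratio of beta to alpha subunits was 0.766 ± 0.033 in Young and 0.745 ± 0.025 in Aged cells (SD, n = 3 each), a difference smaller than the spread.

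**Figure D3:**
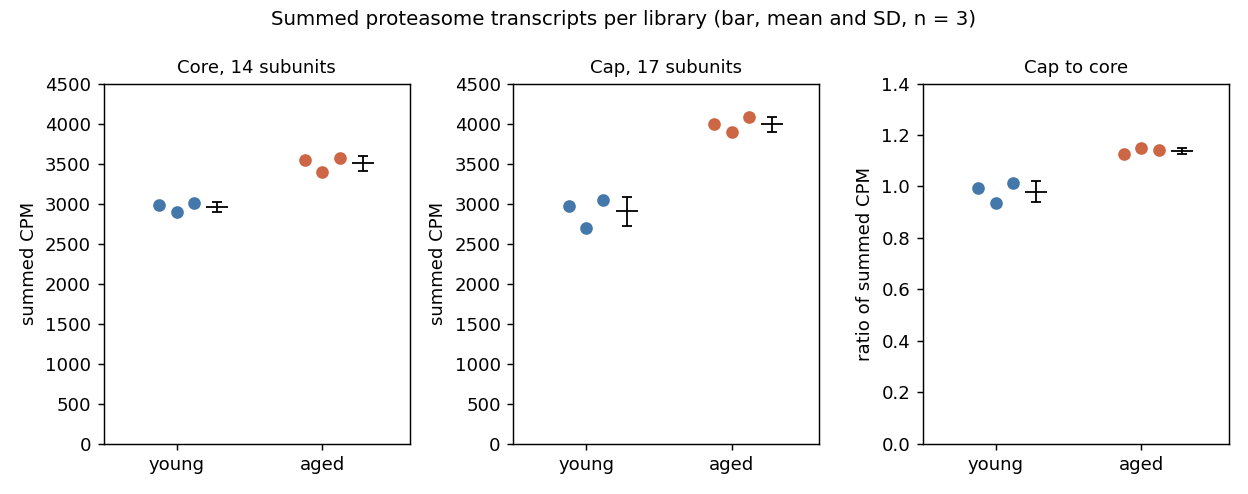
Summed CPM of cap and of core subunits in each library, and their ratio. The cap lies at 2701 to 3049 CPM in Young libraries and 3898 to 4078 CPM in Aged libraries, and the ratio is higher in each Aged library.

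The activators, which open the core without the cap, moved in opposite directions. Psme3, which forms the nuclear activator on its own, was higher, and Psme1 and Psme2, the interferon-induced pair that forms the cytoplasmic activator, were lower. Psme3 read 83.5, 65.0 and 84.9 CPM in Young libraries and 114, 144 and 120 CPM in Aged libraries, 1.62-fold higher (0.69 ± 0.11; limma adjusted p = 0.00014). Psme1 read 442, 419 and 422 CPM against 341, 337 and 332 CPM, 1.27-fold lower (-0.34 ± 0.06; limma adjusted p = 0.000289). The groups did not overlap for either gene, and the libraries of Psme1 lay close together within each group.

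Psme2 read 244, 253 and 226 CPM against 209, 201 and 207 CPM, 1.17-fold lower (-0.23 ± 0.07; limma adjusted p = 0.0255). Its groups were separate, but the call was lost without Young replicate 1 (adjusted p = 0.0877), Young replicate 2 (0.1), Aged replicate 1 (0.0515) or Aged replicate 2 (0.071). Psme2b is a copy of Psme2 with an identical transcript end, so that reads of the pair could have been divided between them. Psme2b itself read 40.4, 31.2 and 26.9 CPM against 31.8, 34.9 and 21.6 CPM, with overlapping groups. Summed, the pair was at 284.3, 284.3 and 252.5 CPM in Young libraries and 240.7, 236.1 and 228.3 CPM in Aged libraries, 1.16-fold lower without overlap. Psme1 and Psme2 are neighbours on chromosome 14 (GRCm38 positions 55578123 to 55581529 and 55587441 to 55591113), 5911 bases apart.

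Psme4, the activator linked to chromatin and sperm histone turnover, read 97.8, 94.0 and 102 CPM against 93.2, 86.6 and 91.3 CPM. All Aged libraries lay below the Young ones, but the difference did not pass (log2 difference -0.12; limma adjusted p = 0.389). Psmf1, a regulator that binds the core, read 34.3, 33.0 and 29.2 CPM against 46.1, 33.4 and 37.6 CPM, with overlapping groups (limma adjusted p = 0.211). Psme3 relative to the sum of Psme1 and Psme2 was 0.122, 0.0967 and 0.131 in Young and 0.208, 0.267 and 0.222 in Aged libraries, so every Aged library was above every Young one.

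**Figure D4:**
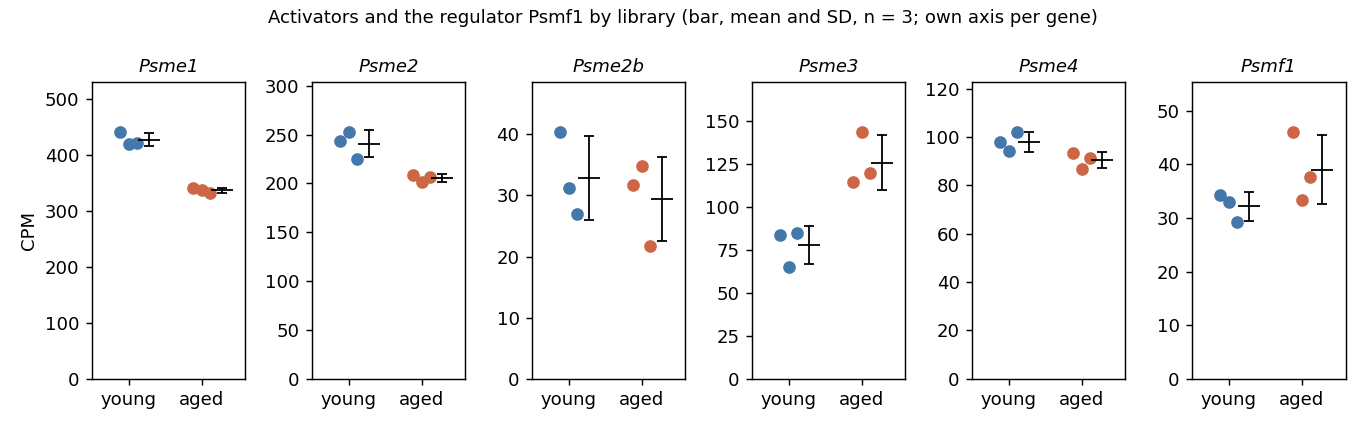
Level of each activator or regulator gene in every library, in CPM on an axis of its own for each gene, with the mean and SD of 3 libraries. Psme3 is higher and Psme1 and Psme2 are lower in each Aged library.

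Of 7 assembly factors, 3 were higher in Aged cells, against 16.2% of all genes tested. None was lower, against 12.5%, and 4 did not pass. The summed level of all 7 was 200.2 ± 6.08 CPM in Young libraries and 260.1 ± 15.8 CPM in Aged ones (SD, n = 3 each), 1.3-fold higher. Psmg1 and Psmg2, which bind each other and start the alpha ring, showed the largest differences. Psmg1 read 15.2, 17.9 and 20 CPM in Young libraries and 29.2, 31.8 and 33.4 CPM in Aged libraries, 1.78-fold higher (0.80 ± 0.17; limma adjusted p = 0.00123). Psmg2 read 17.4, 17.6 and 19.2 CPM against 33.3, 31.4 and 30.6 CPM, 1.76-fold higher (0.78 ± 0.16; limma adjusted p = 0.000951). The partners had like levels in each group, and every Aged library lay above the Young range.

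The second pair of core chaperones did not pass. Psmg3 read 40.9, 35.5 and 37.7 CPM against 48.1, 42.6 and 53.2 CPM, separated between the groups (limma adjusted p = 0.0735), and was called higher without Aged replicate 2 (0.047). Psmg4, its partner, read 34.8, 37.3 and 30.4 CPM against 34.3, 29.1 and 38.6 CPM, with overlapping groups (log2 difference -0.01, 95% interval -0.32 to 0.30; limma adjusted p = 0.973).

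Psmd9, Psmd5 and Psmd10 hold the ATPases while the base is built. Psmd9 read 29.1, 24.8 and 25.7 CPM against 34.3, 34.1 and 39.5 CPM, 1.36-fold higher (limma adjusted p = 0.0362). That call held in 6 of 17 settings, was not made by edgeR (adjusted p = 0.0607) or DESeq2 (0.234), and was lost without each library except Young replicate 1, with adjusted p from 0.0526 to 0.131. Psmd5 read 34.3, 37.3 and 30.4 CPM against 47.1, 39.5 and 44.7 CPM, separated but not called (limma adjusted p = 0.0595), except without Aged replicate 2 (0.048). Psmd10 overlapped, at 29.6, 35.2 and 30.4 CPM against 31.8, 36.8 and 36.7 CPM (limma adjusted p = 0.504).

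**Figure D5:**
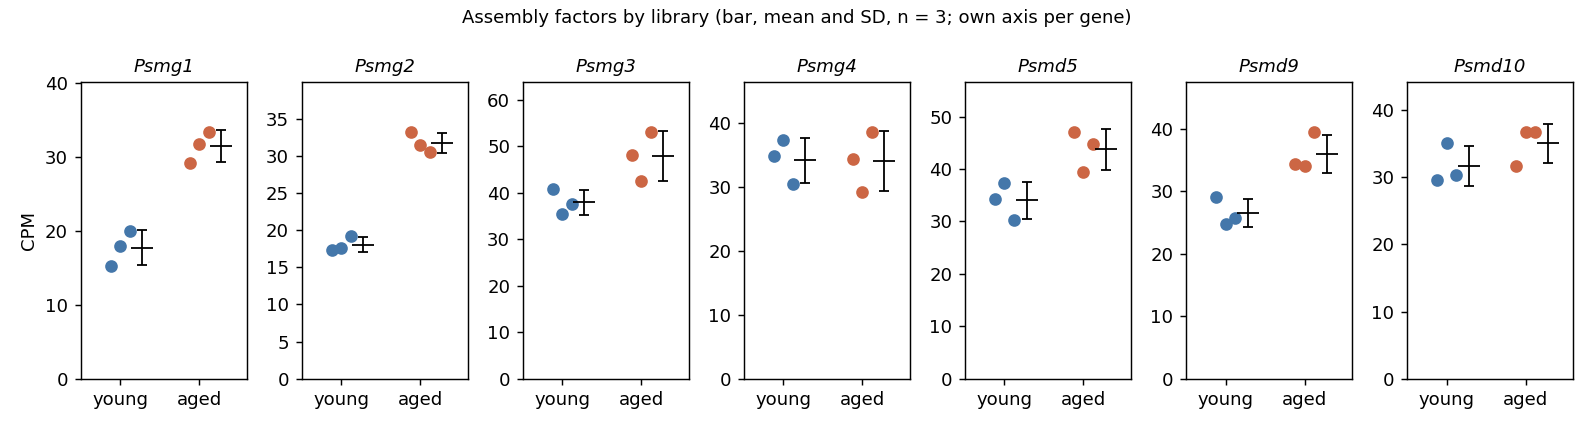
Level of each assembly factor in every library, in CPM on an axis of its own for each gene, with the mean and SD of 3 libraries. Psmg1 and Psmg2 are separated between the groups, and Psmg4 and Psmd10 overlap.

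Psmc3ip, which matches the rule by name only, read 6.96, 5.03 and 10.4 CPM in Young libraries and 25.6, 19.9 and 19.8 CPM in Aged libraries. The groups were separate and the 2.92-fold difference was the largest of the members (1.47 ± 0.25; limma adjusted p = 0.000163). Its exons overlap those of Mlx on the other strand, at a mean of 52.7 CPM, and whether the counting used strand is not given in the sources used here. It is in the counts over all members and in none of the 4 role groups.

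The catalytic subunits can be set against the interferon-induced subunits that replace them. Psmb9 was lower in Aged cells (329 ± 26.4 against 254 ± 15.4 CPM, SD, n = 3 each; limma adjusted p = 0.000976), as was Psmb8 (888 ± 26.3 against 764 ± 50 CPM; 0.00834, and 0.0565 without Aged replicate 3). Exons of Psmb9 overlap those of Tap1 on the other strand, at a mean of 201.5 CPM. Exons of Psmb7 overlap those of Nek6 on the other strand, at a mean of 25.97 CPM. Since the use of strand in counting is not given, the levels of Psmb9 and Psmb7 and the shares of their pairs below carry that limit. Psmb10 had 86.8 ± 1.34 and 73.7 ± 3.64 CPM without passing the test (0.0783), although it passed with edgeR (0.0332) and not with DESeq2 (0.165). The standard subunit's share of its pair, in Young and then in Aged cells, was 22.1% ± 0.771 and 30.0% ± 3.14 for Psmb6 with Psmb9, 63.5% ± 1.29 and 73.6% ± 2.02 for Psmb7 with Psmb10, and 17.7% ± 1.37 and 23.8% ± 1.52 for Psmb5 with Psmb8 (SD, n = 3 each). For each pair all Aged libraries lay above all Young libraries, with an exact two-sided permutation p of 0.1, also after adjustment over the 3 pairs, which is the smallest the design allows. In each pair the standard subunit had the higher mean and the induced subunit the lower mean in Aged cells.

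Proteasome subunits, partners and maturation factors without a Psm name were read from a list of 13 genes, of which 12 were tested: 4 were higher, none was lower and 8 did not pass, with a median log2 difference of 0.22. Over all genes tested, the shares were 16.2% higher and 12.5% lower. The deubiquitinating enzyme Uchl5 was at 56.6 ± 0.705 CPM in Young libraries and 91.1 ± 1.70 CPM in Aged ones (SD, n = 3 each), 1.61-fold higher (limma adjusted p = 3.88e-05). Adrm1, the ubiquitin receptor of the base that recruits Uchl5 to Psmd1, was at 77.5 ± 7.01 and 119 ± 4.55 CPM, 1.54-fold higher (limma adjusted p = 7.47e-05). Uchl5, Adrm1 and their docking subunit Psmd1 were thus all higher. Txnl1, a cap-bound thioredoxin, and Usp14, a second deubiquitinating enzyme, were also higher (limma adjusted p = 0.000959 and 0.00301). Pomp, which matures the core, was at 378 ± 33.1 and 416 ± 16.8 CPM (0.151), and Sem1, the smallest lid subunit, was at 190 ± 20.5 and 173 ± 5.85 CPM with overlapping groups (log2 difference -0.13; 0.275).

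NFE2L1 is the factor that raises proteasome genes when proteasome activity falls short, and 10 of 11 listed genes of its pathway were tested: 3 were higher, 1 was lower and 6 did not pass, with a median of 0.21. The shares over all genes tested were 16.2% higher and 12.5% lower. Vcp, the ATPase that extracts NFE2L1 from the endoplasmic reticulum, was higher (553 ± 48.1 against 744 ± 40.3 CPM, SD, n = 3 each; limma adjusted p = 7.25e-05). Nfe2l1 itself was at 48.7 ± 1.71 and 61.7 ± 0.771 CPM (limma adjusted p = 0.0282), a call not made by edgeR (0.0636) or DESeq2 (0.245) and lost without any 1 of the libraries except Young replicate 2, at adjusted p from 0.0582 to 0.0856. Its partner Mafg was higher (0.0308, and 0.0627 by edgeR), with the call lost without Young replicate 2 (0.176), Young replicate 3 (0.104), Aged replicate 1 (0.0852) or Aged replicate 3 (0.0808). Ngly1, which removes the sugars of NFE2L1, was lower (0.0322, and 0.0747 by DESeq2), with the call lost without Young replicate 1 (0.152), Young replicate 2 (0.134), Aged replicate 1 (0.0881) or Aged replicate 3 (0.0616). The related factor Nfe2l2 did not pass (log2 difference -0.27; 0.234).

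Of 25 tested genes for ubiquitin and its delivery, 8 were higher, 2 were lower and 15 did not pass, with a median of 0.12. Among all genes tested, 16.2% were higher and 12.5% lower. Rad23b, a shuttle that carries ubiquitinated proteins to the cap, was at 187 ± 6.52 CPM in Young libraries and 233 ± 4.13 CPM in Aged ones (SD, n = 3 each), 1.24-fold higher (limma adjusted p = 0.00246). The conjugating enzyme Ube2n had a log2 difference of 0.58 (limma adjusted p = 2.54e-05). Rps27a, which encodes ubiquitin fused to a ribosomal protein, was lower (3137 ± 261 against 2734 ± 67.3 CPM, SD, n = 3 each; limma adjusted p = 0.011, and 0.0576 without Young replicate 2).

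Genes of cell division differed between the same libraries. Mki67, a marker of dividing cells, was at 235 ± 33.3 CPM in Young libraries and 468 ± 12.8 CPM in Aged ones (SD, n = 3 each), 1.99-fold higher. Cdk1, a kinase that drives mitosis, differed 2.05-fold and Mcm3, a subunit of the replication helicase, 1.87-fold, and all were called higher. The part of cell division in the differences of proteasome genes was not tested.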

How the data were processed

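CD8+ T cell RNA of 3 Young and 3 Aged libraries was read by 3' mRNA sequencing, and the deposited values were CPM per gene and library. Per the submitters' processing notes the build was GRCm38 (mm10); the aligner, the read counter and the use of strand were not given in the sources used here. All deposited CPM values were whole multiples of 1 read within 0.01 reads, so reads per gene were recovered for the count tests. The file recorded for Aged replicate 2 is headed as replicate 3 and was used as replicate 2. Of 25655 identifiers, 1 had a blank value and was left out, 25599 had a symbol in GENCODE vM21 and 12037 were at 0 in all libraries.

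Genes averaging 1 CPM or more were tested with limma 3.58.1 (R 4.3.3), with a trend, on log2(CPM + 1), with age as the only term. The members and lists were chosen with earlier results of these data known. Genes named were, in each role, the 2 largest and the smallest log2 difference and the highest level, all activators and assembly factors, all called lower, and the 4 smallest p of each further list; Psmd14, Psma4, Psma6, Psmb2, Rps27a, the other lid subunits and the cell division genes were added after their values were seen. Some genes of the further lists are not reported here by name. The 17 alternatives were edgeR 4.0.16, DESeq2 1.42.0, limma-voom, 3 scalings, 2 pseudocounts (0.1 and 5), 2 filters, a replicate block and each library left out. Scripts were tested on simulated data. Transcript ends (last 150 bases) were compared between genes at 95% identity over at least 100 bases: 7 members matched another gene, and among genes in the files only Psme2 and Psme2b matched each other. Counting precision follows depth: 3 reads equal 1.08 to 1.54 CPM, a limit of counting alone, while the 95% intervals printed are limma's and rest on the spread between libraries.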

Additional observations from a re-analysis of the deposited data

How the results depend on the processing

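Among the 45 proteasome genes, 29 were higher and 2 lower in the reported fit. With TMM, RLE or upper-quartile scaling, edgeR, DESeq2 or limma-voom, 26 were higher, 6 of them in the core, 16 in the cap and 2 among assembly factors. With libraries left out in turn, the higher calls ran from 26 to 30 (core 6 to 8, cap 16, activators 1, assembly factors 2 to 4) and the lower calls from 1 to 2, at 1 without Young replicate 1, Young replicate 2, Aged replicate 1 or Aged replicate 2. The median log2 difference ran from 0.43 to 0.56 for the cap, 0.20 to 0.31 for the core, -0.22 to -0.04 for activators and 0.27 to 0.43 for assembly factors. No called difference of a proteasome gene, and none of these group medians, changed sign under the alternatives, while Psmb1, Psmg4 and Psme2b, which were not called, did under some. Over all genes tested, 952 were higher and 1017 lower with DESeq2, against 1701 and 1313, and the split was 1428 to 1554 with TMM, 1451 to 1531 with RLE, 1306 to 1689 with upper-quartile scaling, 1443 to 1555 with edgeR (13.7% higher) and 1436 to 1520 with limma-voom. The median log2 difference of all genes turned from 0.03 to -0.02 with TMM, -0.01 with RLE and -0.05 with upper-quartile scaling. Pairing by replicate number was not visible, although the values cannot exclude it. Over 10511 genes, deviations from the group means correlated at 0.0209, 0.00025 and 0.0028 between same-numbered Young and Aged libraries. Other pairs ran from -0.0259 to 0.0242, the highest for Young replicate 3 with Aged replicate 2, which is headed as replicate 3. The fit with the replicate number as a block gave 29 higher and 2 lower members and 1725 higher and 1336 lower genes. Depth limits the low members most, since 1 read was worth up to 0.512 CPM.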
